A study of Saccharomyces cerevisiae with 2 samples.

Results

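The genes for the proteins of the cytosolic small ribosomal subunit were taken as all rows whose standard symbol in the R64 annotation is RPS followed by a number and, for duplicated genes, A or B. The rule gives 56 genes for 32 proteins, 24 of them encoded by an A and a B paralogue and 8 by a single gene. RPS14A was not analysed here, which left 55 of the 6207 open reading frame (ORF) rows. Of these, 53 had a log2 ratio on both arrays, while RPS8A and RPS19A had none on either array. The values compare Saccharomyces cerevisiae cells exposed to Zymolyase, a mixture of enzymes that breaks down cell wall glucan, at 0.8 units per ml for 3 hours at 24 °C, with untreated cells of the same split culture. Both groups carried the sho1 mutation in the haploid laboratory background BY4741, so the altered gene, that of the membrane sensor Sho1, was shared by treated and untreated cells, and no wild-type cells were compared. SHO1 itself had no value on either array, and a ratio between groups that share the mutation could not check the genotype. RNA of both groups was hybridised together on 2 two-colour DNA microarrays with swapped dyes. Treated RNA carried Cy3 on array 1 and Cy5 on array 2. One free-text label, for the untreated channel of array 2, speaks of hog1 in place of sho1.

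The small subunit reads the mRNA: its body and head enclose the decoding site, and its platform lies where the mRNA leaves. Its proteins are made in roughly equal numbers, and in yeast most of their genes survive as pairs from an ancient genome duplication that encode identical or nearly identical proteins. Ribosomal protein genes are transcribed together under Rap1, Fhl1, Ifh1 and Sfp1, with input from the growth kinases TORC1 and protein kinase A, and their mRNAs are known to decline together in many acute stresses.

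The deposited value of a gene is a log2 ratio between the 2 dyes of an array, and the labels do not give its direction. Over all 5311 ORFs with a value on both arrays, the columns had a Pearson r of -0.012 and a Spearman rho of -0.26 across genes, which are not independent replicates. Values are therefore given as above or below 0 in the deposited sign. Means and medians over both columns are given as deposited and with array 1 turned (its sign reversed). If both columns are treated over untreated, the first mean is the treated over untreated ratio. If both are Cy5 over Cy3, the second mean is, and if both are Cy3 over Cy5, the second mean has the opposite sign. No mRNA level and no spot intensity was used here, and precision is limited by having 2 arrays. The labels speak of 2 cultures and of more arrays per condition than the 2 used here. Nothing in them ties either array to a culture of its own. The p-values thus measure only the spread between these 2 arrays, which may be technical. limma takes most of that spread from all ORFs together, so a gene's own SD has little weight in its p-value.

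As a group, the small subunit genes stayed close to the middle of the arrays. The list median was -0.014 (log2 ratio) on array 1 and -0.038 on array 2, against -0.029 and -0.022 over all tested ORFs. The median of the gene means was -0.027 for the small subunit genes and -0.028 for all tested ORFs. With array 1 turned, these medians were -0.014 and 0.0059. With limma and Benjamini-Hochberg adjustment over all ORFs, 0 of 53 passed an adjusted p of 0.05, against 0.772% of all tested ORFs. None had an unadjusted p under 0.05 (lowest 0.0599, RPS15), against 3.6% of all ORFs, and robust variances also gave 0 of 53 past the adjusted threshold. The 95% intervals of limma reached 0.27 to 0.39 on either side of a gene's mean as deposited, and 0.21 to 0.38 with array 1 turned. With 2 arrays, a mean closer to 0 than that reach could not be told from 0 even before adjustment. Passing the adjusted threshold took a larger mean: MYO4, at 0.47 as deposited, had a limma adjusted p of 0.13.

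By sign, 16 genes were below 0 on both arrays, 6 were above 0 on both and 31 had opposite signs. The matching shares over all tested ORFs were 26.8%, 14% and 59.2%, and those of the small subunit genes were 30.2%, 11.3% and 58.5%. Among the 31, the value was above 0 on array 1 and below 0 on array 2 in 18 genes, against 29.2% of all ORFs, and the other way round in 13 genes, against 30.1%. Turning array 1 makes those 18 the genes below 0 on both arrays and those 13 the genes above 0 on both. In 37 of the 53 genes both values were under 0.2 in size, a share of 69.8% against 59.9% of all ORFs. At the other end, 3 genes were over 0.3 in size on both arrays, or 5.66% against 3.31% of all ORFs. Those 3 were RPS30A, RPS30B and RPS12. RPS30B on array 2 was the only value of the 53 genes on either array to reach 1.5-fold, against 1.51% of ORFs on array 1 and 1.45% on array 2.

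**Figure D1:**
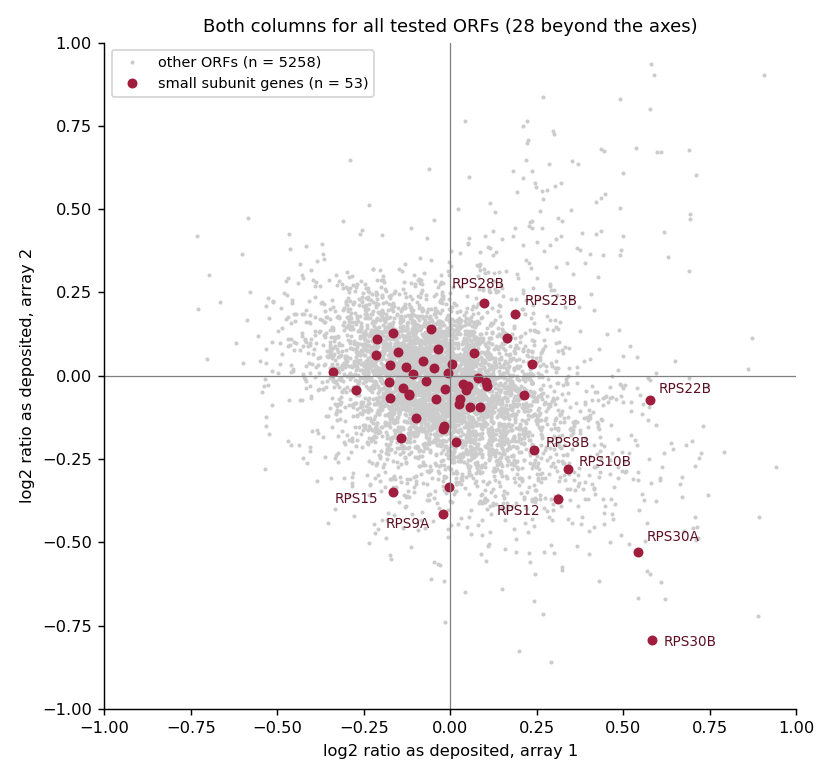
Log2 ratio as deposited on array 1 (horizontal) and on array 2 (vertical) for 53 small subunit genes (red) and the other tested ORFs (grey), with 28 ORFs beyond the axes. Most red points lie in the central cloud, and RPS30A and RPS30B lie at its lower right, above 0 on array 1 and below 0 on array 2.

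The genes of Rps30, a small basic protein of the body near the decoding site, had the widest gap between the arrays. RPS30A (YLR287C-A) was 0.54 on array 1 and -0.53 on array 2, and RPS30B (YOR182C) was 0.58 on array 1 and -0.79 on array 2. Both paralogues were thus high on array 1 and low on array 2, and no other small subunit gene was as low on array 2. Among all tested ORFs RPS30B was the third lowest on array 2, after RTG3 and GLN1. As deposited, the arrays cancel: the mean was 0.0063 ± 0.76 for RPS30A and -0.10 ± 0.97 for RPS30B (SD, n = 2 arrays). With array 1 turned, RPS30A had a mean of -0.53 ± 0.0090, a difference of 1.45-fold (SD, n = 2; limma unadjusted p = 0.00144, adjusted p = 0.487). RPS30B then had -0.69 ± 0.15, or 1.61-fold (SD, n = 2; limma unadjusted p = 0.000999, adjusted p = 0.487). Neither gene passed the test over all ORFs in either reading. Of the 1549 ORFs above 0 on array 1 and below 0 on array 2, RPS30B ranked 5 and RPS30A ranked 9 by the smaller of their 2 absolute values.

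Other proteins of the body line the path of the mRNA into the decoding site. Rps23, a protein of the decoding centre itself, was encoded by the genes with the closest arrays. RPS23A (YGR118W) was 0.069 on array 1 and 0.067 on array 2, and RPS23B (YPR132W) was 0.19 on array 1 and 0.18 on array 2. As deposited, both lay above 0 on both arrays, and RPS23B had the largest such value by the smaller of its arrays, with a mean of 0.19 ± 0.0022 (SD, n = 2) that did not pass limma's test (adjusted p = 1.00). Its arrays cancel with array 1 turned, the mean then being -0.0015 ± 0.26 (SD, n = 2). RPS2 (YGL123W), single-copy and needed for accurate decoding, was -0.34 on array 1 and 0.011 on array 2, so only array 1 was away from 0. Rps9, another protein in which mutations alter translational accuracy, was below 0 in both paralogues and on both arrays. RPS9A (YPL081W) was -0.020 on array 1 and -0.42 on array 2, while RPS9B (YBR189W) was -0.17 on array 1 and -0.066 on array 2. The lower value came from array 2 in RPS9A and from array 1 in RPS9B.

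The platform, on the side where the mRNA leaves, holds Rps1, Rps14 and Rps26. RPS1A (YLR441C) was 0.24 on array 1 and 0.034 on array 2, and RPS1B (YML063W) was 0.16 on array 1 and 0.11 on array 2. All 4 values were above 0 as deposited, with means of 0.14 ± 0.14 and 0.14 ± 0.036 (SD, n = 2 each). Their means with array 1 turned were -0.10 ± 0.19 for RPS1A and -0.026 ± 0.19 for RPS1B (SD, n = 2 each), and neither gene passed limma's test in either reading. RPS14B (YJL191W), whose splicing is repressed by its own protein, was -0.0068 on array 1 and 0.0072 on array 2, the smallest pair of values of all 53. Rps26, which contacts mRNA on its way out, had RPS26A at 0.036 on array 1 and -0.024 on array 2 and RPS26B at -0.12 on array 1 and -0.058 on array 2. Only the B gene was below 0 on both arrays.

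The remaining body proteins hold the folded rRNA on the outer face of the subunit. RPS22B (YLR367W) was 0.58 on array 1 and -0.072 on array 2, the highest array 1 value after RPS30B, and its paralogue RPS22A (YJL190C) was -0.055 on array 1 and 0.14 on array 2. RPS22B was the only one of the 56 genes that overlaps another gene of the R64 annotation, the small nucleolar RNA gene SNR44. With 0.25 ± 0.46 (SD, n = 2) it had the highest mean of the 53 as deposited, and with array 1 turned it had the fourth lowest, -0.32 ± 0.36 (SD, n = 2). In both readings the spread between its arrays exceeded the size of the mean. RPS8B (YER102W) was 0.24 on array 1 and -0.22 on array 2, opposite in sign and alike in size. Rps6, whose tail is phosphorylated downstream of TORC1, showed the reverse order of signs in both genes. RPS6A was -0.21 on array 1 and 0.11 on array 2, and RPS6B was -0.17 on array 1 and 0.032 on array 2. Rps27 had the same pattern at smaller size, with RPS27A at -0.034 on array 1 and 0.080 on array 2 and RPS27B at -0.080 on array 1 and 0.044 on array 2.

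Further proteins of the body had small values in all of their genes. Rps7, a target of the ubiquitin ligase Not4, was below 0 throughout, with RPS7A at -0.12 on array 1 and -0.055 on array 2 and RPS7B at -0.021 on array 1 and -0.16 on array 2. Rps4 was also below 0 throughout, with RPS4A at -0.014 on array 1 and -0.041 on array 2 and RPS4B at -0.019 on array 1 and -0.15 on array 2. These 4 genes made up part of the 16 that were below 0 on both arrays, and all of them were under 0.2 in size. Rps24 had opposite signs in both genes, with RPS24A at 0.081 on array 1 and -0.0055 on array 2 and RPS24B at 0.046 on array 1 and -0.042 on array 2. Single-copy RPS13 was 0.027 on array 1 and -0.068 on array 2. Rps0 and Rps21, which bind each other near the junction of body and head, were split between arrays and paralogues. RPS0A was 0.050 on array 1 and -0.030 on array 2, and RPS0B was -0.069 on array 1 and -0.015 on array 2. RPS21A was -0.047 on array 1 and 0.023 on array 2, and RPS21B was 0.0058 on array 1 and 0.035 on array 2.

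In the head, RPS15 (YOL040C), whose product reaches towards the decoding site, was the lowest of all 53 genes by mean as deposited. It was -0.17 on array 1 and -0.35 on array 2, with a mean of -0.26 ± 0.13 (SD, n = 2; limma unadjusted p = 0.0599, adjusted p = 1.00). Its mean with array 1 turned was -0.092 ± 0.37. Rps25, dispensable for growth and known from internal initiation on viral mRNAs, was below 0 on both arrays in both genes. RPS25A (YGR027C) was -0.0043 on array 1 and -0.33 on array 2, and RPS25B (YLR333C) was -0.14 on array 1 and -0.19 on array 2. RPS25A owed its mean of -0.17 as deposited to array 2, whereas RPS25B, at -0.16 ± 0.030 (SD, n = 2), had like values on both. The mean with array 1 turned was -0.17 ± 0.24 for RPS25A and -0.021 ± 0.23 for RPS25B (SD, n = 2 each).

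Genes for the beak and the entry side of the head had opposite signs on the arrays, as did 59.2% of all ORFs. RPS12 (YOR369C), a single-copy gene for a beak protein, was 0.31 on array 1 and -0.37 on array 2. RPS10A (YOR293W) was 0.21 on array 1 and -0.058 on array 2, and RPS10B (YMR230W) was 0.34 on array 1 and -0.28 on array 2. All 3 genes were above 0 on array 1 and below 0 on array 2, the order of signs found in RPS30A, RPS30B and RPS8B. With array 1 turned, RPS12 had a mean of -0.34 ± 0.040 (SD, n = 2; limma unadjusted p = 0.00932, adjusted p = 0.487). RPS10B had -0.31 ± 0.041 in that reading (SD, n = 2; limma unadjusted p = 0.0132, adjusted p = 0.487). RPS31 (YLR167W), which encodes a beak protein fused to ubiquitin, had the other order, -0.15 on array 1 and 0.072 on array 2. RPS3, at the mRNA entry, was 0.024 on array 1 and -0.083 on array 2, and RPS20, whose product is ubiquitinated when ribosomes collide, was 0.085 on array 1 and -0.094 on array 2.

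Head proteins that touch the tRNAs had small values. RPS16A was -0.11 on array 1 and 0.0063 on array 2, and RPS16B was 0.10 on array 1 and -0.019 on array 2. RPS18A was -0.13 on array 1 and 0.026 on array 2, and RPS18B was -0.18 on array 1 and -0.020 on array 2. Neither protein had a gene over 0.2 in size on an array. Rps29, a small zinc-binding protein, had RPS29A at 0.11 on array 1 and -0.032 on array 2 and RPS29B at 0.057 on array 1 and -0.093 on array 2. RPS17A (YML024W) was -0.16 on array 1 and 0.13 on array 2, the widest case, by the smaller of its values, of the order below 0 on array 1 and above 0 on array 2. RPS17B was -0.042 on array 1 and -0.069 on array 2. RPS19B, measured without its paralogue, was 0.018 on array 1 and -0.20 on array 2. Rps28 had the largest A minus B difference by the mean of both arrays as deposited. RPS28A (YOR167C) was -0.22 on array 1 and 0.061 on array 2, and RPS28B (YLR264W), whose mRNA is known to be bound by its own protein, was 0.098 on array 1 and 0.22 on array 2. RPS28B had the highest array 2 value of the 53 genes, and its mean was 0.16 ± 0.086 as deposited (SD, n = 2; limma adjusted p = 1.00) and 0.061 ± 0.22 with array 1 turned.

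**Figure D2:**
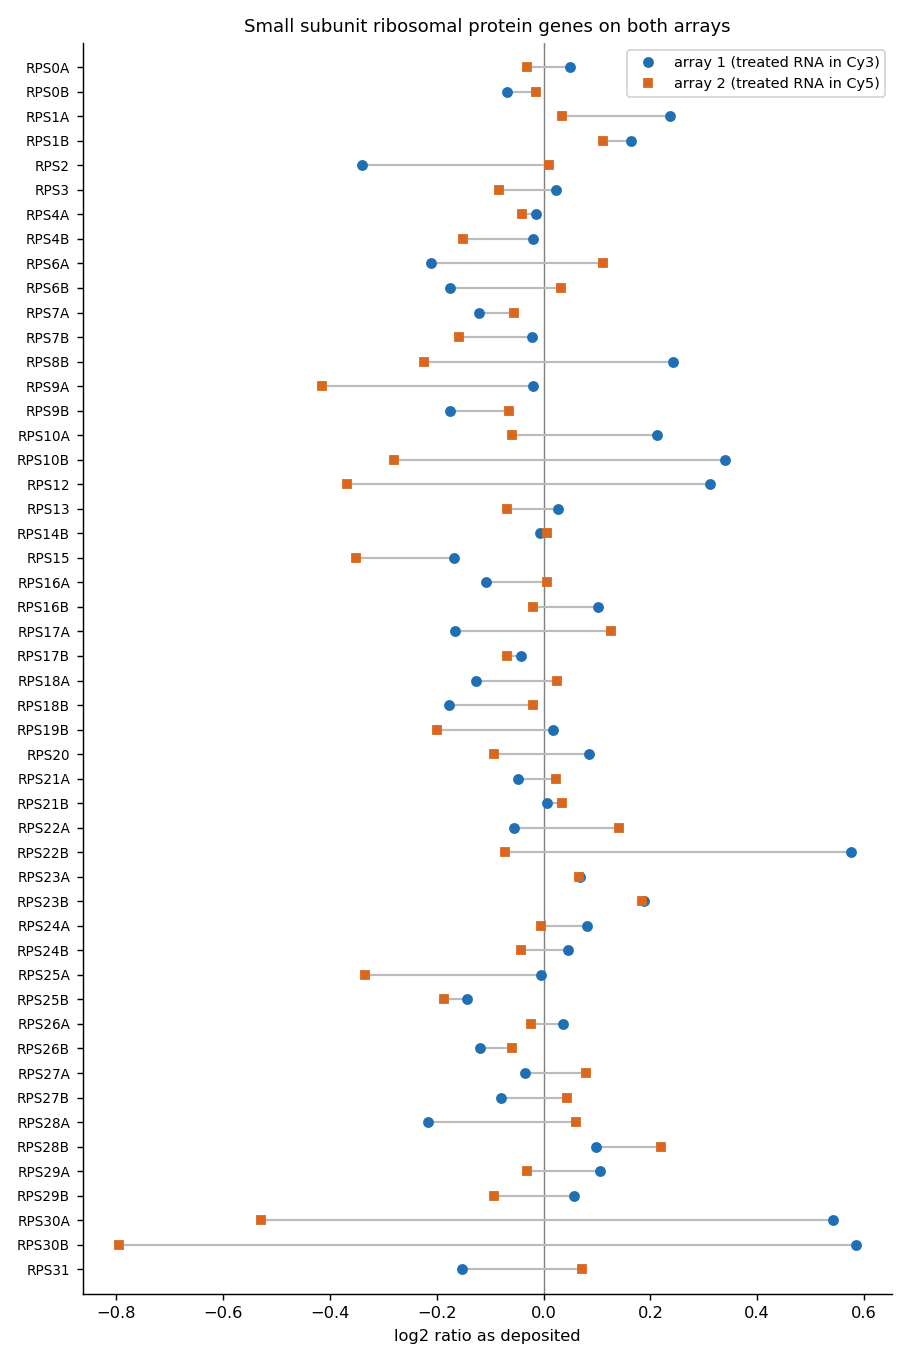
Log2 ratio as deposited of each of 50 small subunit genes (rows) on array 1 (blue circles, treated RNA in Cy3) and array 2 (orange squares, treated RNA in Cy5), joined by a line. In 31 rows the points lie on opposite sides of 0, and the longest lines belong to RPS30B and RPS30A.

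In the reading with array 1 turned, 0 of 53 small subunit genes passed the adjusted threshold in limma (lowest adjusted p = 0.487), against 0% of all ORFs. At an unadjusted p under 0.05 there were 5 small subunit genes, or 9.43% against 9.4% of all ORFs, all 5 with a mean below 0, the side that held 5.95% of all ORFs. They were RPS30A, RPS30B, RPS12, RPS10B and RPS8B. The share of small subunit genes below that threshold on either side was thus near the background. All 5 encode proteins found in eukaryotes and not in bacteria, as do 30 of the 53 measured genes, and RPS30A and RPS30B encode the same protein. None of the 23 measured genes for universally conserved proteins was among the 5. Whether the proteins' conservation is related to the values was not tested.

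Paralogues are compared within each array, where array-wide shifts cancel. Both genes were measured for 21 of the 24 pairs, and RPS8B, RPS14B and RPS19B lacked a measured partner. A and B lay on the same side of 0 in 15 pairs on array 1 and in 17 on array 2. Of the 53 genes, 29 were below 0 on array 1 and 34 on array 2. The matching share for genes of different proteins was not counted. Across the pairs, the A and B values had a Pearson r of 0.60 and a Spearman rho of 0.45 on array 1, and 0.71 and 0.69 on array 2. Without the RPS30 pair, left out after its values were seen, Pearson's r was 0.36 on array 1 and 0.43 on array 2. Spearman's rho was then 0.37 on array 1 and 0.64 on array 2. The median size of the A minus B difference was 0.099 on array 1 and 0.088 on array 2. Over all 1357 combinations of small subunit genes for different proteins, the median size of the difference was 0.16 and 0.13. Points of one array share its RNA, labelling and hybridisation, and paralogues share sequence as well. How far each spot also bound the other paralogue's cDNA was not tested.

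**Figure D3:**
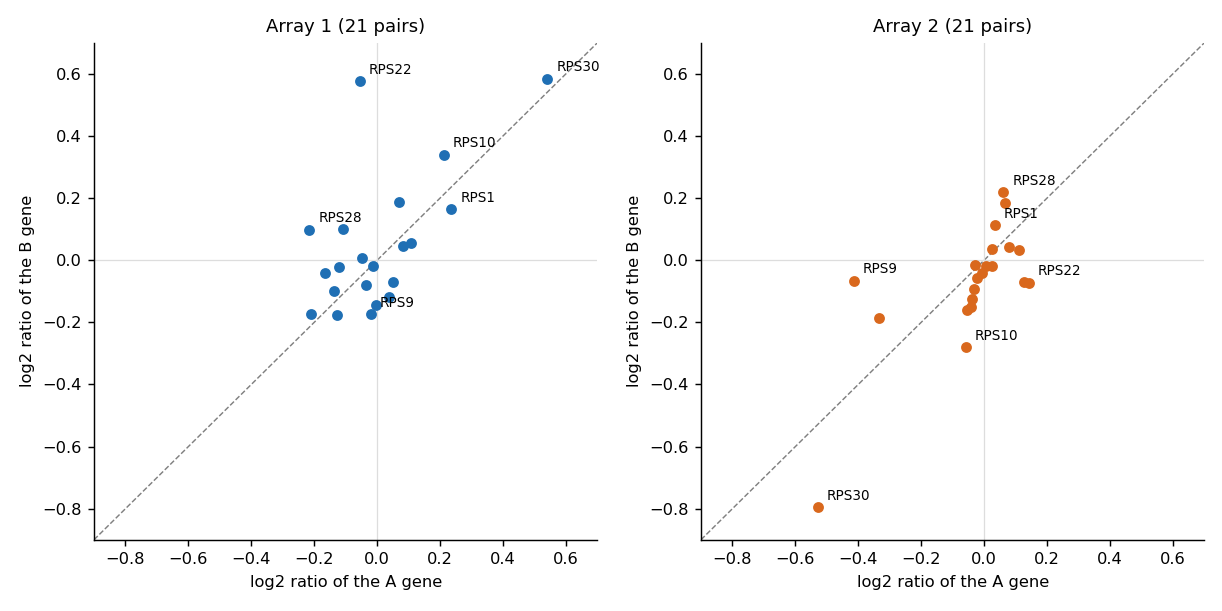
Log2 ratio as deposited of the A gene (horizontal) and the B gene (vertical) of 21 pairs on array 1 (left) and array 2 (right), with the line of equal values dashed. RPS30 lies at the upper end on array 1 and at the lower end on array 2, and RPS22 lies farthest from the dashed line on array 1.

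The A minus B difference kept its sign on both arrays in 9 pairs, with A above B in 6 and below it in 3, and changed sign in the other 12. Across pairs, the differences on the arrays had a Pearson r of -0.37 and a Spearman rho of -0.40. Rps28 had the largest difference of one sign, -0.31 on array 1 and -0.16 on array 2, with a mean of -0.24 ± 0.11 (SD, n = 2 arrays). Rps23 followed with -0.12 on array 1 and -0.12 on array 2, the B gene being higher by nearly the same amount on each. The other named pairs with a constant sign had A above B by small amounts. The difference was 0.049 on array 1 and 0.061 on array 2 in RPS29, and 0.050 on array 1 and 0.046 on array 2 in RPS18. It was 0.046 on array 1 and 0.036 on array 2 in RPS27, and 0.035 on array 1 and 0.036 on array 2 in RPS24. In these 6 pairs, chosen for the constant sign, the mean difference as deposited exceeded the SD between arrays. The differences between paralogues are given with no test: no model was fitted to them, and the exact sign-flip test over 2 arrays cannot give a two-sided p below 0.5.

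Pairs whose difference changed sign included the widest ones. RPS22 differed by -0.63 on array 1 and 0.21 on array 2, as RPS22B stood high on array 1 alone. RPS9 differed by 0.15 on array 1 and -0.35 on array 2, RPS9A being low on array 2 alone. RPS25 had differences of 0.14 on array 1 and -0.15 on array 2, and RPS10 had -0.13 on array 1 and 0.22 on array 2. For RPS30, the difference was -0.043 on array 1 and 0.27 on array 2, small beside the gap between arrays that both genes shared. With array 1 turned, the mean differences were 0.42 for RPS22, -0.25 for RPS9, -0.14 for RPS25, 0.18 for RPS10 and 0.15 for RPS30. In the same reading Rps28 had a mean difference of 0.078 and Rps23 one of 0.00063. Which pairs differ most thus depended on the orientation of the columns. In 8 of 21 pairs both differences were under 0.1 in size, and in 3 at least one was over 0.3.

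**Figure D4:**
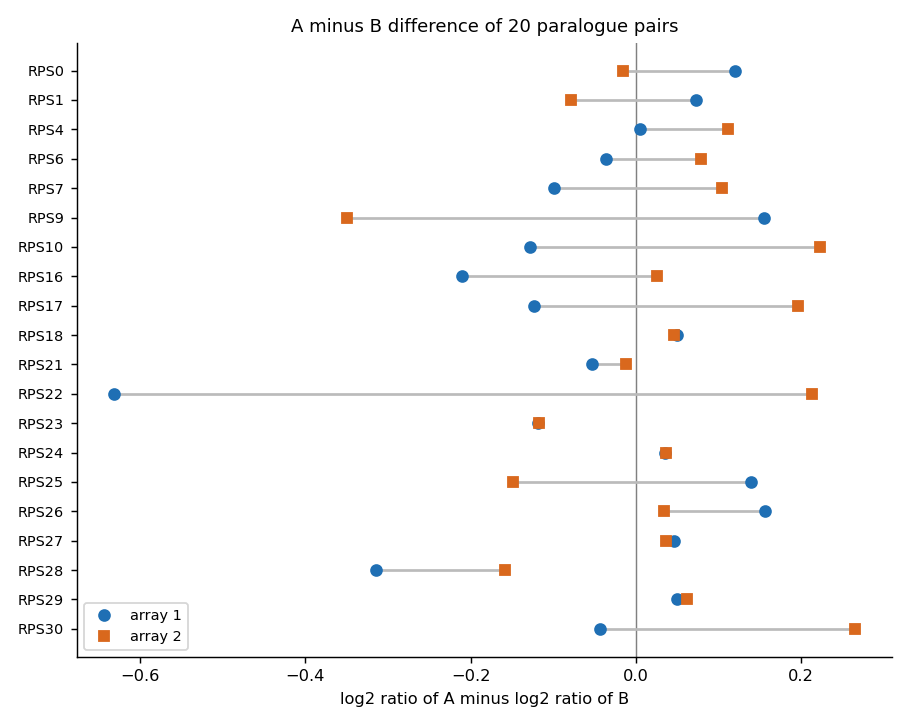
Log2 ratio of A minus log2 ratio of B for 20 of the paralogue pairs (rows) on array 1 (blue circles) and array 2 (orange squares), joined by a line. Points lie on one side of 0 in 9 pairs, RPS28 and RPS23 on the left among them, and on opposite sides in the other 11.

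Subgroups within the subunit had medians within 0.1 of 0 in both readings. The 21 measured genes of the head had a median of the means of -0.040 and the 32 of the body and platform -0.015. With array 1 turned, the medians were -0.054 for the head and -0.0074 for the body and platform. Of the head genes, 6 were below 0 on both arrays, 1 was above on both (RPS28B) and 14 had opposite signs. Of the body and platform genes, 10 were below, 5 above and 17 opposite. Opposite signs were thus found in 66.7% of the head genes and 53.1% of the body and platform genes, on either side of the 59.2% of all ORFs. Below 0 on both arrays were 28.6% and 31.3%, against 26.8% of all ORFs, and above 0 on both were 4.76% and 15.6%, against 14%. In the reading with array 1 turned, 9 head genes were below 0 on both arrays and 5 above, and 9 body and platform genes were below and 8 above. The shares of all ORFs in that reading were 29.2% below and 30.1% above. The 8 single-copy genes had a median of -0.035 and the 45 measured paralogues -0.018 as deposited, and -0.051 and -0.013 with array 1 turned. Of the single-copy genes, 2 were below 0 on both arrays, RPS15 among them, and 6 had opposite signs. These were 25% and 75% of only 8 genes, against 26.8% and 59.2% of all ORFs. Universally conserved proteins had a median of -0.030 over 23 genes, and those absent from bacteria -0.023 over 30, as deposited. These medians with array 1 turned were -0.0015 and -0.023. Between the columns, Pearson's r was 0.092 over the 23 and -0.71 over the 30, which include RPS30A and RPS30B. Over all 53 genes it was -0.48, and -0.18 without those 2 genes. Spearman's rho was 0.0020 over the 23, -0.48 over the 30 and -0.26 over all 53. Over all tested ORFs, Pearson's r was -0.012 and Spearman's rho was also -0.26. These coefficients run across genes of the same 2 arrays and describe them only.

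Large subunit genes gave a yardstick of like function. The 71 measured RPL genes had a median of -0.072 on array 1 and -0.029 on array 2. Small subunit genes differed from them by 0.058 on array 1 and by -0.0087 on array 2 (difference of medians, small minus large subunit). The difference changed sign between arrays, and 2 arrays cannot give an exact two-sided p below 0.5. Below 0 on both arrays were 16 of 53 small subunit and 28 of 71 large subunit genes, or 30.2% and 39.4% against 26.8% of all ORFs. The order of the groups was the other way round with array 1 turned, with 18 small subunit and 15 large subunit genes below 0 on both, or 34.0% and 21.1% against 29.2% of all ORFs. None of the large subunit genes passed limma's test in either reading. An unadjusted p under 0.05 was found for 5 of the 71 as deposited, or 7.04% against 3.6% of all ORFs, and for 2 with array 1 turned, or 2.82% against 9.4%. By the smaller of their absolute values, RPL4B (-0.33 on array 1 and -0.24 on array 2), RPL20B (-0.22 on array 1 and -0.45 on array 2) and RPL8A (-0.18 on array 1 and -0.21 on array 2) were the lowest on both arrays as deposited.

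Genes that assemble, use or control the small subunit also had no member past limma's test in either reading, out of 18 assembly factors, 16 partners in initiation and 19 regulators measured on both arrays. At an unadjusted p under 0.05 as deposited there were 1 assembly factor, 2 initiation partners and 0 regulators, against 3.6% of all ORFs. In the turned reading there were 1, 0 and 3, the regulators making up 15.8% of their list against 9.4% of all ORFs. The assembly factor was HRR25, at 0.18 on array 1 and -0.26 on array 2. The regulators were UTP22 (-0.42 on array 1 and 0.20 on array 2), ABF1 (0.16 and -0.39) and MRS6 (0.24 and -0.23). Assembly factors had a median of the means of -0.035, with 6 of 18 below 0 on both arrays and 0 above, against 26.8% and 14% of all ORFs. Their median with array 1 turned was -0.089, with 9 below and 3 above, against 29.2% and 30.1% of all ORFs. EMG1, an rRNA methyltransferase, was -0.23 on array 1 and -0.26 on array 2, and PRP43, an RNA helicase, was -0.18 on array 1 and -0.43 on array 2. DIM1, another methyltransferase of the small subunit rRNA, was -0.049 on array 1 and -0.084 on array 2. FAP7, which acts with Rps14, was 0.055 on array 1 and -0.42 on array 2, and YAR1, the chaperone of Rps3, was 0.099 on array 1 and -0.37 on array 2. TSR2, the chaperone of Rps26, was -0.0029 on array 1 and -0.011 on array 2. TSR4, which escorts Rps2, was 0.15 on array 1 and -0.15 on array 2. Of these 4 partners of single small subunit proteins, FAP7 and YAR1 were the lowest on array 2, and neither was below 0 on array 1.

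Initiation partners had a median of 0.032 as deposited, with 5 of 16 above 0 on both arrays and 2 below, against 14% and 26.8% of all ORFs. Turning array 1 put the median on the other side of 0, at -0.055, with 1 above and 8 below, against 30.1% and 29.2% of all ORFs. RPG1, a subunit of initiation factor eIF3, was 0.29 on array 1 and 0.39 on array 2 (limma adjusted p = 0.764 as deposited). STM1, which clamps idle ribosomes, was -0.21 on array 1 and -0.46 on array 2 (limma adjusted p = 0.837 as deposited). ASC1, a head protein of the subunit that the naming rule leaves out, was 0.18 on array 1 and 0.14 on array 2, above 0 on both arrays like RPS1B and RPS23B. Regulators had a median of -0.064 as deposited, with 9 of 19 below 0 on both arrays and 2 above, against 26.8% and 14% of all ORFs. The turned reading gave a median of -0.0015, with 5 below and 3 above, against 29.2% and 30.1% of all ORFs. TOR1, the TORC1 kinase, was 0.11 on array 1 and 0.14 on array 2. TPK3, a protein kinase A subunit, was -0.077 on array 1 and -0.099 on array 2, and HMO1, a promoter-bound factor, was -0.10 on array 1 and -0.072 on array 2. RAP1, the main promoter factor, was -0.028 on array 1 and -0.083 on array 2, and FHL1, its partner at these promoters, was 0.088 on array 1 and -0.12 on array 2. IFH1, a coactivator, was 0.24 on array 1 and -0.12 on array 2, and SFP1, a zinc finger activator, was 0.0060 on array 1 and -0.074 on array 2. FHL1, IFH1 and SFP1 thus had opposite signs on the arrays. Markers of the a mating type, of which 5 were measured on both arrays, lay between 0.0060 and 0.20 on array 1 and between -0.22 and 0.12 on array 2, with 0 past the test. Ratios do not show whether such markers are present.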

How the data were processed

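The deposited table holds 1 log2 ratio for each ORF on each array. The base follows from the numbers, since 2 raised to each value fell on a multiple of 0.0001 (tolerance 1% of 0.0001) for 100% of them. Neither background correction nor normalization within arrays nor the scanner is given in the sources used here. Of 6209 rows, 2 control rows were left out, 5654 of 6207 ORF names matched locus tags of the R64 annotation, and no coordinates or sequences are given. limma 3.58.1 (R 4.3.3) tested whether each gene's mean differed from 0, two-sided, with an intercept-only lmFit and eBayes on the 5311 ORFs with 2 values and Benjamini-Hochberg adjustment. Each gene had 1 residual and 23.5 prior degrees of freedom (3.55 with array 1 turned). With 2 arrays no dye term could be fitted. The fit was also run on simulated independent arrays, with variances drawn from its own prior as deposited. That simulation does not cover the turned reading or the relation between the real columns. Tables and plots used Python 3.11.15, pandas 2.3.3 and matplotlib 3.10.9. Alternatives were a turned array, centring, scaling, single arrays, robust variances and other call rules.

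The members and lists were chosen with earlier results of these data known. All measured members enter the counts and medians, and the values of 3 of them are not reported here. Apart from those 3, named in more detail are the 6 with the largest values of one sign on both arrays on each side and the 6 of opposite sign (by the smaller absolute value), the single-copy genes, and the 6 pairs of constant and 4 of changing difference. Of other lists up to 3 are named by the same measure, among genes with the same sign on both arrays as deposited. RPS17B, RPS30 as a pair, FAP7, YAR1, TSR2, TSR4, HRR25, FHL1, IFH1, SFP1, RAP1, UTP22, ABF1 and MRS6 and genes given for completeness go beyond that rule.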

Additional observations from a re-analysis of the deposited data

How the results depend on the processing

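The small subunit genes had 0 past limma's test as deposited and under a turned array, centring, scaling, robust variances, ORFs with 1 value kept, a 1.5-fold size rule and an adjusted p of 0.1. Over all ORFs, 41 passed as deposited and 0 with array 1 turned (499 at an unadjusted p under 0.05), and 31 to 61 under the other alternatives. The median of the small subunit genes was -0.027. It was 0.000428 with centred arrays and -0.00186 with scaled ones, and from -0.038 to -0.014 on single arrays. With centring or scaling, 9 genes were below 0 on both arrays, against 16 as deposited, since each array's own median was below 0, and single arrays had 29 to 34 below 0. The median size of the A minus B difference, 0.048, was 0.067 with array 1 turned and 0.088 to 0.099 on single arrays, where differences of opposite sign do not cancel. Turning array 1 moved the mean of 26 of the 53 genes by more than the SD between arrays, and centring and scaling moved 7 each. The yardstick was each gene's own SD, which is wide where its arrays differ, so this count does not measure the size of the move. RPS30A (mean from 0.0063 to -0.53) and RPS30B (from -0.10 to -0.69) were not among the 26, while RPS23A (from 0.068 to -0.00089) was. The test on single arrays was not run, since 1 array leaves no residual degrees of freedom, and neither were pairs whose proteins differ, since no protein sequences were used here. No paired analysis was possible because both arrays form 1 group of ratios. Leaving out RPS30A and RPS30B was chosen after the data were seen.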
